A study of Homo sapiens with 9 samples.

Results

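Retinoid metabolism and the ALDH1A enzymes were described here through 9 genes, ALDH1A1, ALDH1A2, ALDH1A3, RDH10, RDH11, DHRS3, DHRS9, CRABP2 and STRA6, out of 28216 genes with counts. The genes were chosen by name for their place in the pathway, with earlier results of these data known. All 9 had a row of counts in every library. RNA had been sequenced from PC3 and LNCaP, established human lines of metastatic prostate cancer, and 3 groups of 3 libraries were formed. PC3 cells, which grow without androgen, were untreated and kept in F12K medium with 10% foetal bovine serum. LNCaP cells (clone FCG), which respond to androgen, were first kept for 24 h in RPMI that held no phenol red and 10% charcoal-stripped serum, and then spent 48 h with either 10 nM DHT or vehicle (0.01% ethanol). The labels give both lines as wild type, meaning that no gene was edited, and name the hormone DHT (dihydrotestosterone), whereas the main text of the study names the synthetic androgen R1881. Cell line, medium and serum changed together between PC3 and LNCaP cells, so a difference between the lines cannot be told apart from a difference in culture. Vehicle-treated LNCaP cells were deprived of hormone, and stripped serum also holds less retinoid than whole serum. Each comparison sets 1 line, or 1 clone of it, against the other, and the labels number the replicates without saying that they are separate cultures, so p-values measure the spread between these libraries.

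Cells take up retinol, vitamin A, bound to a carrier protein through the receptor STRA6. Retinol dehydrogenases such as RDH10 and DHRS9 oxidise it to retinal, and DHRS3 and RDH11 act in the reverse direction by reducing retinal to retinol. The retinaldehyde dehydrogenases ALDH1A1, ALDH1A2 and ALDH1A3 then oxidise retinal to retinoic acid, a step that cannot be reversed, and CRABP2 carries the acid to the nuclear receptors of the RAR and RXR families, while CYP26 enzymes break it down. In prostate tissue the pathway is known for its part in epithelial differentiation, and ALDH1A family members are widely used as markers of tumour cells with stem cell properties.

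Sequence before the start site is shown for the 3 genes of the set that rose with DHT, so that their levels can be read beside their promoters. RefSeq promoters (250 bases before to 50 bases after a start, 300 bases in all, build GRCh38.p14) were found for 8 of the 9 genes. The stretches run 5′ to 3′ on the gene's strand from 250 to 21 bases before the start, and capitals mark a GC box (GGGCGG) or a CCAAT box on either strand. The ALDH1A3 stretch lies at chr15:100879581-100879810 on the plus strand, that of RDH11 at chr14:67695785-67696014 on the minus strand and that of DHRS3 at chr1:12618231-12618460 on the minus strand.
ALDH1A3: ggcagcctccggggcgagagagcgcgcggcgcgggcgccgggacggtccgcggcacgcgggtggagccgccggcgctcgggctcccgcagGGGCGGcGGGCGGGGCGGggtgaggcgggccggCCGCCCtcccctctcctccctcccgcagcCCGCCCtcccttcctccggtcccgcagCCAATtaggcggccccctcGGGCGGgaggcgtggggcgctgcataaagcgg
RDH11: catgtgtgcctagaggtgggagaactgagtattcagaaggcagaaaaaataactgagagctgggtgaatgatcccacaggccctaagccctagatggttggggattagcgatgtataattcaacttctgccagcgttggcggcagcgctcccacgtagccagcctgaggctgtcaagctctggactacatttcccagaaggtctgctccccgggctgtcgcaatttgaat
DHRS3: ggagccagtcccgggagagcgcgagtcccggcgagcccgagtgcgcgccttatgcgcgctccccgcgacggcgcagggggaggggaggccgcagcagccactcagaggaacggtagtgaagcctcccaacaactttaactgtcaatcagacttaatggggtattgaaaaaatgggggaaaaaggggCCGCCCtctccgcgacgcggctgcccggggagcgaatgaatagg

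The 3 stretches differed in composition, with G or C at 82.2% of the bases for ALDH1A3, 52.6% for RDH11 and 64.3% for DHRS3. The ALDH1A3 stretch held 6 GC boxes, of which a pair overlaps, and 1 CCAAT box. RDH11 has a CCAAT box on the opposite strand at position -22 from the start. It runs past the end of the printed stretch and is therefore not marked. At least 6 GC boxes were found in 2.86% of 35116 RefSeq promoters, and at least 1 in 45%. The letters AGAACA, the core of an androgen response element, are found on either strand in 14.8% of all promoters, and AGGTCA, the core of a retinoic acid response element, in 13.8%. Neither was found in the 300-base windows of the 8 genes, which says only that these letters are not in these windows.

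The 9 genes fell into those that were read in all libraries and those that were hardly read at all. ALDH1A3, RDH10, RDH11 and DHRS3 had at least 176 counts in every library, whereas CRABP2 exceeded 17 counts in PC3 cells only and ALDH1A2 stayed at 24 counts or fewer. ALDH1A1, DHRS9 and STRA6 never exceeded 5 counts. Levels between genes are compared as CPM per kb, which is CPM, the counts after scaling for library size with TMM factors, divided by the length of the gene's MANE transcript, the reference transcript of the annotation. On this scale RDH11 was the most abundant of the 9 in LNCaP cells with DHT and with vehicle, with a mean of 472 and 231 CPM per kb, and ALDH1A3 was the most abundant in PC3 cells with 230 CPM per kb. Among 18734 genes with such a length, RDH11 in DHT-treated LNCaP cells took rank 136 from the top and ALDH1A3 in PC3 cells rank 249.

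**Figure D1:**
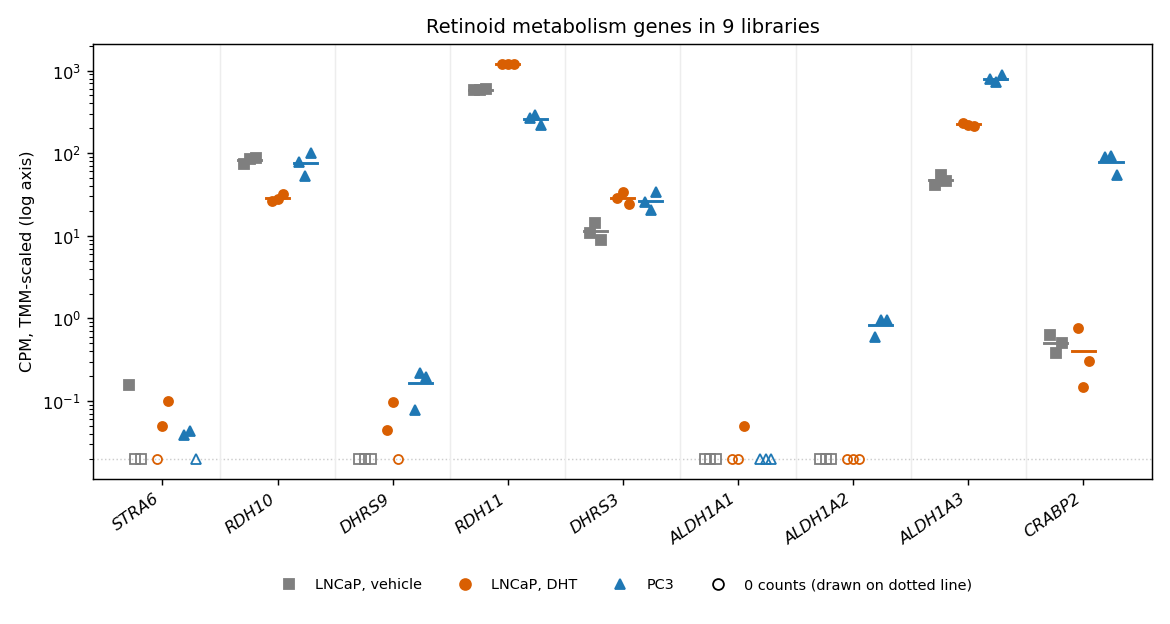
CPM after TMM scaling (log axis) of the 9 genes in each library, with grey squares for LNCaP cells with vehicle, orange circles for LNCaP cells with DHT, blue triangles for PC3 cells and a bar at the group mean where every library had counts. Open symbols on the dotted line are libraries with 0 counts, and single counts set the level of STRA6, DHRS9 and ALDH1A1. The plot shows ALDH1A3 rising in 3 steps from vehicle to DHT to PC3 and RDH10 lowest with DHT.

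Libraries held 17397706 to 25640325 counts on genes, with all vehicle libraries below all others. Luminal prostate markers matched the labels in LNCaP cells, where KLK3 had 9831 to 88995 counts. In PC3 cells KLK2 had 0 counts, KLK3 had 2 to 20, FKBP5 had 279 to 650 and EPCAM had 677 to 875. The luminal keratins were not lost there, with 2963 to 3312 counts of KRT8 and 6453 to 7240 of KRT18. KRT18 stood at 282 CPM in PC3 cells and 334 CPM with vehicle. VIM, the marker of PC3 cells, had 26319 to 32841 counts there, 106 to 272 with DHT and 23 to 75 with vehicle. Of the markers of other cell types, the leukocyte gene PTPRC had 0 counts in all LNCaP libraries and 4 to 7 in PC3 libraries, and the endothelial gene PECAM1 had 47 to 85 in PC3 cells and at most 1 in LNCaP cells. The fibroblast gene COL1A1 was read in every library, at 37.9 ± 4.06 CPM in PC3 cells, 13.3 ± 1.72 with DHT and 22.2 ± 1.63 with vehicle (SD, n = 3), while DCN had at most 2 counts and PDGFRB at most 15. LNCaP libraries also differed in their trace of transcripts typical of PC3. Over 125 to 128 genes at 100 CPM or more in PC3 cells and at most 1% of that in the other LNCaP libraries, replicate 1 with DHT held 0.665% of the PC3 level, replicate 1 with vehicle 0.417% and the other LNCaP libraries 0.208% to 0.245%. Fold changes that rest on low counts in LNCaP cells are therefore also given without these replicates.

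Uptake of retinol through STRA6 was at the edge of detection. Counts of STRA6 were 1, 1 and 0 in PC3 cells, 0, 1 and 2 in LNCaP cells with DHT, and 3, 0 and 0 with vehicle. No library exceeded 3 counts, the upper limit that a count of 0 allows, so a difference in STRA6 was not detectable at this depth and no fold change is given. The limit covers counting error only.

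RDH10, the retinol dehydrogenase that makes retinal, was lower in LNCaP cells with DHT than in either other group. Counts of RDH10, on chromosome 8, were 1397, 1570 and 1719 with vehicle and 586, 567 and 632 with DHT, or 82.2 ± 7.81 and 28.7 ± 2.88 CPM (SD, n = 3). All 3 DHT libraries lay below all vehicle libraries. In DHT-treated against vehicle-treated cells the log2 fold change was -1.52 ± 0.08 (SE), with an adjusted p of 1.33e-09 in edgeR's quasi-likelihood test. PC3 libraries had 1962, 1212 and 2509 counts of RDH10, or 76.3 ± 23.2 CPM (SD, n = 3), and spread more widely than either LNCaP group. Against DHT-treated LNCaP cells the log2 fold change in PC3 cells was 1.41 ± 0.20 (SE, adjusted p = 0.000283, edgeR), with no overlap between libraries. Against vehicle-treated LNCaP cells it was -0.09 ± 0.20 (SE, adjusted p = 0.698, edgeR), and the libraries overlapped. Its 95% interval by normal approximation, which is too narrow for so few libraries, was -0.47 to 0.30. The sign of the fold change against vehicle turned, to 0.11, without PC3 replicate 2, the lowest of the PC3 libraries.

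DHRS9, the other retinol dehydrogenase of the set, was read too rarely to pass the expression filter. Its counts were 2, 5 and 5 in PC3 cells, 1, 2 and 0 in LNCaP cells with DHT, and 0 in all 3 vehicle libraries. Without the filter, its adjusted p in edgeR was 0.117 for PC3 against DHT and 0.0139 for PC3 against vehicle, the latter a call on 12 counts in all.

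RDH11, which reduces retinal and was named early on as a short-chain dehydrogenase of the prostate, rose with DHT and was lowest in PC3 cells. With vehicle RDH11 had 10995, 10676 and 11729 counts, and with DHT 26485, 24400 and 23969 counts. After scaling these were 586 ± 9.65 and 1199 ± 12.0 CPM (SD, n = 3), and the DHT libraries all lay above the vehicle libraries. The log2 fold change with DHT was 1.03 ± 0.03 (SE, adjusted p = 2.07e-11, edgeR), so the gene passed the 2-fold limit only narrowly. PC3 cells were lowest, with 6761, 6673 and 5581 counts of RDH11, or 259 ± 35.4 CPM (SD, n = 3). The log2 fold change in PC3 cells was -2.21 ± 0.12 (SE) against DHT-treated and -1.15 ± 0.11 (SE) against vehicle-treated LNCaP cells, with adjusted p of 7.57e-07 and 2.40e-05 in edgeR. The order DHT, vehicle, PC3 was therefore separated at both steps. In the annotation, a protein-coding gene on the same strand, ENSG00000258466, shares 346 nt (13.6%) of the RDH11 transcript, and it is not among the counted symbols.

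DHRS3, the retinal reductase that pairs with RDH10, was lowest in vehicle-treated cells. Its counts were 208, 260 and 176 with vehicle, 640, 694 and 482 with DHT, and 650, 468 and 846 in PC3 cells. Scaled to CPM, the means were 11.4 ± 2.7, 29.1 ± 4.99 and 26.4 ± 6.58 (SD, n = 3). Every vehicle library lay below every other library, while the DHT and PC3 libraries overlapped. With DHT the log2 fold change of DHRS3 was 1.36 ± 0.15 (SE, adjusted p = 2.63e-06, edgeR), and in PC3 cells against vehicle it was 1.24 ± 0.22 (SE, adjusted p = 0.000922, edgeR). PC3 cells against DHT-treated cells gave -0.14 ± 0.19 (SE, adjusted p = 0.522, edgeR), and 0.02 without PC3 replicate 2. The 95% interval of the former by normal approximation, again too narrow for so few libraries, was -0.51 to 0.24.

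RDH10 and DHRS3, which work on the same pair of molecules in opposite directions, moved in opposite directions with DHT. Within a library, the ratio of RDH10 to DHRS3 on the CPM per kb scale was 3.73, 3.36 and 5.43 with vehicle, 0.509, 0.454 and 0.729 with DHT, and 1.68, 1.44 and 1.65 in PC3 cells. On this scale RDH10 was thus the more abundant transcript in all vehicle and PC3 libraries and the less abundant in all DHT libraries. The order with DHT rests on the division by transcript length. In CPM alone the DHT means were 28.7 for RDH10 and 29.1 for DHRS3, and RDH10 was the higher in DHT replicate 3 (31.9 against 24.3 CPM). Between DHT and vehicle the mean log2 ratio differed by -2.89, with a two-sided exact permutation p of 0.1, the smallest that 3 against 3 libraries can give when they are taken as unpaired. Since RDH10 was lower and DHRS3 higher in all DHT libraries, the ratio had to separate. This p was thus fixed by the single genes and is a description. A p of 0.1 in the same test was also reached for PC3 against either LNCaP group, with log2 differences of 1.52 against DHT and -1.36 against vehicle. These ratios describe RNA and were not measured as enzyme activity.

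ALDH1A3 accounted for nearly all ALDH1A transcripts. It made up 99.9% to 100% of the summed CPM per kb of ALDH1A1, ALDH1A2 and ALDH1A3 in every library. ALDH1A1, which is often used to mark stem-like cells, had a single count in 1 DHT library and 0 in the other 8 libraries. ALDH1A2 had 15, 22 and 24 counts in PC3 cells and 0 in all 6 LNCaP libraries. Taking 3 counts per library as the limit for 0, the mean CPM of ALDH1A2 in PC3 cells exceeded that in LNCaP cells with DHT at least 5.50-fold and that with vehicle at least 5.05-fold. The spread between the PC3 libraries does not enter these bounds. ALDH1A2 did not pass the expression filter. Without the filter it was called in both comparisons (adjusted p = 9.82e-05 and 0.000186, edgeR).

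ALDH1A3 itself rose with DHT and was highest in PC3 cells. Its counts were 780, 985 and 915 with vehicle, 5211, 4484 and 4226 with DHT, and 20114, 16661 and 22118 in PC3 cells. The means were 47.1 ± 6.61, 223 ± 10.2 and 797 ± 74.8 CPM (SD, n = 3), and no library of one group reached those of another. With DHT the log2 fold change of ALDH1A3 was 2.24 ± 0.08 (SE, adjusted p = 3.02e-11, edgeR), which took rank 192 of the 765 genes called higher with DHT. In PC3 cells it was 1.84 ± 0.09 (SE, adjusted p = 4.60e-07) against DHT-treated and 4.1 ± 0.12 (SE, adjusted p = 5.40e-08) against vehicle-treated LNCaP cells in edgeR. The cell line with the higher level was thus the one kept without added androgen, while within LNCaP cells the level was higher with androgen.

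Reads of ALDH1A3 depend on strand. The antisense gene ALDH1A3-AS1 covers 1715 nt (49.4%) of the ALDH1A3 transcript, and STAR counts taken without strand were 40.9% to 47.9% of the forward-strand counts for ALDH1A3, against 100% or slightly more for RDH10, RDH11, DHRS3 and CRABP2. The unstranded counts gave log2 fold changes of 2.27 with DHT, 1.95 for PC3 against DHT and 4.24 for PC3 against vehicle, so that the direction and the calls for ALDH1A3 did not rest on the choice of strand.

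The ratio of ALDH1A3, which consumes retinal, to RDH10, which supplies it, was lowest with vehicle. On the CPM per kb scale it was 0.637, 0.716 and 0.607 with vehicle, 10.1, 9.03 and 7.63 with DHT, and 11.7, 15.7 and 10.1 in PC3 cells. Vehicle libraries were all below 1 and the other libraries all above 7, whereas PC3 and DHT libraries overlapped. The exact two-sided permutation p was 0.1, the smallest possible, for vehicle against either other group and 0.2 for PC3 against DHT. For DHT against vehicle this p was fixed in advance, since ALDH1A3 was higher and RDH10 lower in all DHT libraries.

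**Figure D2:**
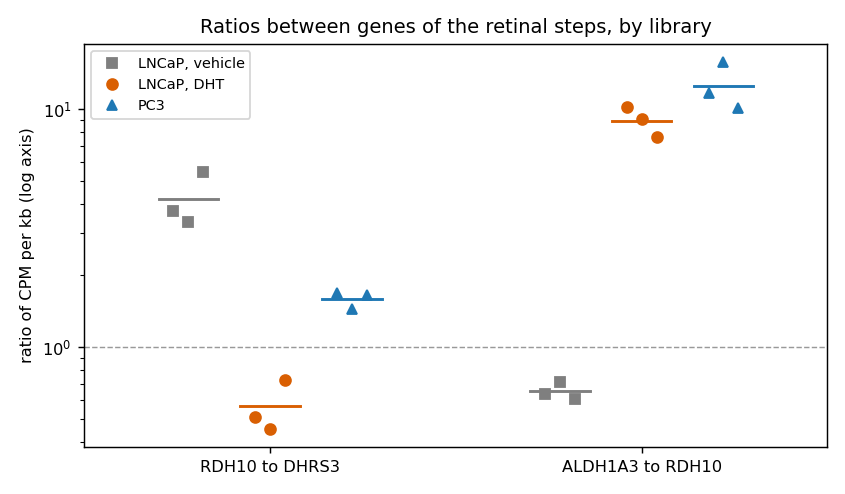
Ratios of RDH10 to DHRS3 and of ALDH1A3 to RDH10 on the CPM per kb scale (log axis) in each library, with symbols as labelled, bars at the group means and a dashed line at a ratio of 1. The mean ratio of RDH10 to DHRS3 was 4.17 with vehicle, 0.564 with DHT and 1.59 in PC3 cells, and that of ALDH1A3 to RDH10 was 0.654, 8.94 and 12.5.

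CRABP2, the carrier of retinoic acid, was high in PC3 cells and close to 0 in LNCaP cells. PC3 libraries had 2263, 2145 and 1382 counts of CRABP2, or 79.0 ± 21.2 CPM (SD, n = 3). LNCaP libraries had 17, 3 and 6 counts with DHT and 12, 7 and 10 with vehicle. Both LNCaP groups lay far below PC3 cells and overlapped each other, and CRABP2 was under the filter in the DHT comparison. CRABP2 entered the comparisons with PC3 only because its 3 PC3 libraries passed the filter, so it had to differ there and its fold change is a description. The log2 fold change in PC3 cells was 7.56 ± 0.41 (SE) against DHT-treated and 7.29 ± 0.33 (SE) against vehicle-treated LNCaP cells in edgeR. Expressed as a share of the PC3 mean, CRABP2 stood at 0.964%, 0.188% and 0.383% in the DHT libraries and at 0.797%, 0.486% and 0.643% in the vehicle libraries. The trace of PC3-typical transcripts in the same libraries was 0.665%, 0.245% and 0.208% with DHT and 0.417%, 0.215% and 0.239% with vehicle. The CRABP2 share was below the trace in DHT replicate 2 and above it in every other LNCaP library. The part of that trace in the residual counts was not tested. Without DHT replicate 1, the library with the largest trace, the log2 fold change against DHT-treated cells was 8.45, and without vehicle replicate 1 that against vehicle-treated cells was 7.48.

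Counted together, all 4 of the 9 genes that passed the expression filter in the DHT comparison were called, with 3 higher and 1 lower. Of the 11697 genes tested there, 14% were called, 6.54% higher and 7.49% lower. The 9 genes were chosen with earlier results of these data known, so the 4 calls beside that share are a description. A call needs an adjusted p under 0.05 together with a 2-fold or larger change, and the filter asks for more than 3 CPM in at least 3 libraries. The other 5 genes were under the filter and are described by their counts. In PC3 cells, leaving aside CRABP2, 3 of the 4 genes were called against DHT-treated LNCaP cells (2 higher, 1 lower), beside 46% of 12541 genes, and 3 of 4 against vehicle-treated cells (2 higher, 1 lower), beside 43.2% of 12686 genes. Groups did not overlap for 4 of 4 genes with DHT, where 77.8% of all tested genes did not overlap. In the comparisons with PC3, 3 of the 4 did not, beside 86.4% (against DHT) and 85.9% (against vehicle) of all tested genes. The median log2 fold change of the 4 genes was 1.20 with DHT, 0.64 in PC3 cells against DHT and 0.58 against vehicle, and over all genes tested it was -0.01, 0.04 and 0.03. Here and below, values over all genes tested include genes that passed the filter through only 1 group, whereas these 4 genes passed in both. The shares and medians over all genes are thus not matched to the 4 genes. The comparisons share libraries in pairs and so are not independent of one another.

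**Figure D3:**
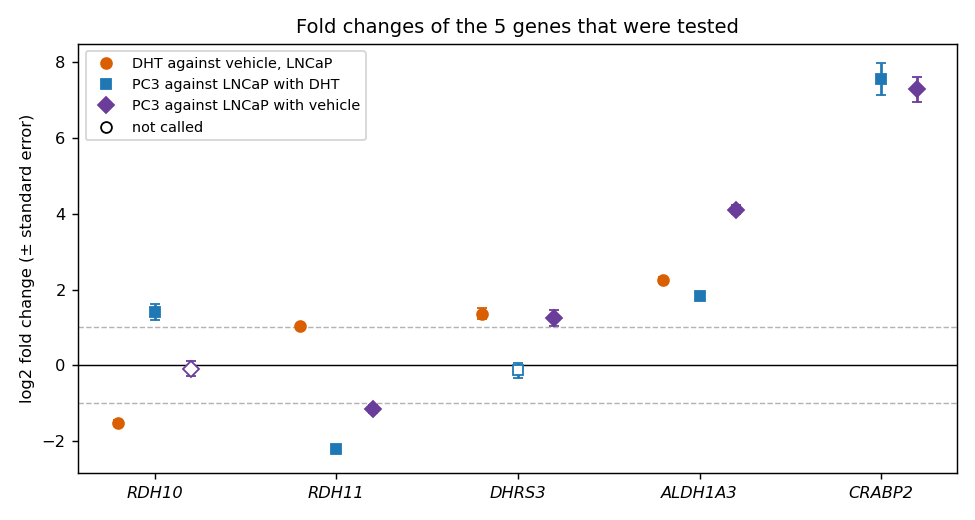
Log2 fold changes with their standard errors for the 5 tested genes in 3 comparisons, with open symbols for values that were not called and dashed lines at a 2-fold change. ALDH1A3 was higher in all 3 comparisons (2.24, 1.84 and 4.1), RDH11 rose with DHT (1.03) and was lower in PC3 cells (-2.21 and -1.15), and CRABP2 was tested only against PC3 cells.

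Of 46 further genes for uptake, storage, oxidation, binding, signalling and breakdown of retinoids, 14 were tested with DHT, 1 was called, beside the 14% of all genes given above, and the median log2 fold change was -0.13. The called gene was RBP5, a cellular retinol-binding protein, with a log2 fold change of -2.50 ± 0.14 (SE) in edgeR. RBP5 passed the filter only through the vehicle libraries, so this value is a description. By role, 1 of 4 tested genes of uptake and storage was called, and 0 of 4 other oxidoreductases, 0 of 5 binding proteins and receptors and 0 of 2 response genes. With the adjusted p alone, 9 of the 14 passed, so most of these changes were smaller than 2-fold. The receptors, which bind retinoic acid or pair with those that do, had log2 fold changes with DHT of -0.60 for RARA, -0.68 for RARG, -0.49 for RARB, -0.27 for RXRA and -0.10 for RXRB, and none was called.

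Between the lines, 6 of 13 pathway genes that passed the filter in both groups were called against DHT, and 3 of 12 against vehicle. The shares over all genes tested, 46% and 43.2%, include genes that passed through only 1 group. They are thus not matched, and a higher or lower rate of calls cannot be read from them. Against DHT-treated LNCaP cells 10 of 17 tested pathway genes were called in PC3 cells, 8 higher and 2 lower, beside 46% of all genes, with a median log2 fold change of 0.79. AKR1C3, AWAT2, FABP5 and RBP4 passed the filter only through PC3 libraries and so had to differ, and of the other 13 genes 6 were called. RBP4, the carrier of retinol in blood, had a log2 fold change of 8.54 ± 0.23 (SE) in edgeR, and 9.45 without DHT replicate 1. These values are a description. FABP5, which can carry retinoic acid to other receptors, had 886 to 1691 counts in PC3 cells, 0 to 15 with DHT and 0 to 2 with vehicle, and was at least 322-fold higher than with vehicle. AWAT2, an acyltransferase that can esterify retinol, was at least 31.1-fold and 28.6-fold higher than with DHT and with vehicle, and AKR1C3, a reductase of retinal and steroids, at least 27.2-fold higher than with DHT. RBP7, another cellular retinol-binding protein, was higher than with DHT (1.25) and with vehicle (1.40), and SCARB1, a lipid and carotenoid receptor, was lower than with DHT (-1.18). RARB went the other way, with 1 count over the 3 PC3 libraries, and was at least 25.6-fold lower than in DHT-treated and 35.8-fold lower than in vehicle-treated LNCaP cells. RARA and RARG were higher (1.30 and 1.51) and RXRA lower (-1.53) in PC3 than in DHT-treated cells. Against vehicle-treated cells RXRA was -1.77 and called, whereas RARA (0.72) and RARG (0.86) did not reach the 2-fold limit.

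Against vehicle-treated LNCaP cells 10 of 19 tested pathway genes were called, 7 higher and 3 lower, beside 43.2% of all genes, with a median of 0.72. Of these, 7 passed the filter only through 1 group (AKR1C3, AWAT2, FABP5, RARB, RBP4, RBP5 and TGM2), and of the other 12 tested genes 3 were called, DGAT1 (1.33), RBP7 and RXRA. TGM2, a transglutaminase long known to be induced by retinoic acid, had 1612 to 2010 counts in PC3 cells, 31 to 104 with DHT and 1 to 8 with vehicle. Its log2 fold change in edgeR was 4.46 ± 0.33 (SE, adjusted p = 5.13e-06) against DHT and, as a description, 8.35 ± 0.30 (SE) against vehicle. Without replicate 1 these were 4.49 and 8.30, and without vehicle replicate 3 the latter was 9.09. CRABP1, the paralogue of CRABP2, had 42 to 108 counts in PC3 cells and at most 1 in LNCaP libraries, at least 18.5-fold and 17.0-fold higher than with DHT and with vehicle. Of the CYP26 enzymes that break down retinoic acid, 0 of 3 passed the filter in any comparison. CYP26B1 had the most counts, 39, 33 and 37 in PC3 cells, 4, 3 and 2 with DHT and 6, 2 and 8 with vehicle.

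**Figure D4:**
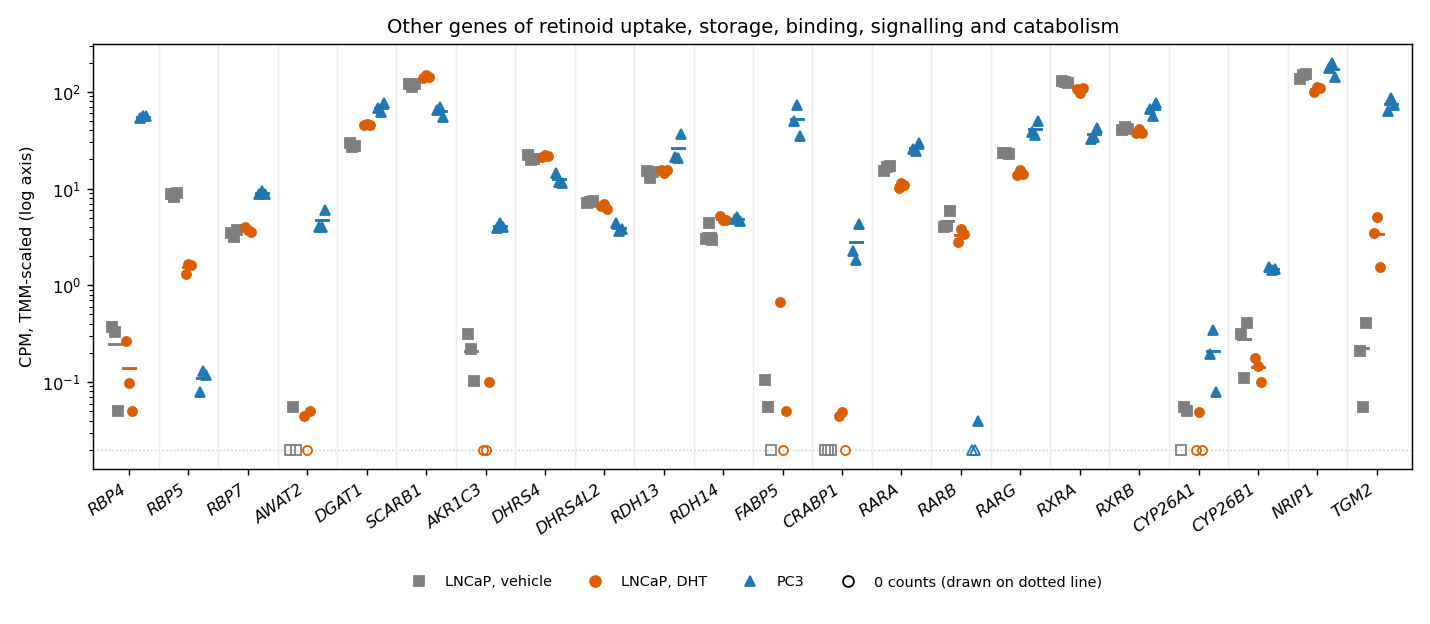
CPM after TMM scaling (log axis) in each library for 22 other genes of the retinoid pathway, with symbols as labelled, bars at the group mean where every library had counts and open symbols for 0 counts. RBP4, FABP5, CRABP1 and TGM2 stand highest in PC3 cells, RARB is close to 0 there, and RBP5 stands highest with vehicle.

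The remaining aldehyde dehydrogenases, outside the ALDH1A group, were mostly lower in PC3 cells where called. Of 16 such genes, 10 were tested with DHT and 2 were called, both higher, beside 14% of all genes, with a median log2 fold change of 0.01. These were ALDH4A1, an enzyme of proline breakdown (1.67 ± 0.05, SE, adjusted p = 1.43e-11, edgeR), and ALDH6A1, an enzyme of valine breakdown (1.01 ± 0.05, SE, adjusted p = 3.98e-10, edgeR). In PC3 cells 12 of 13 tested genes were called against DHT-treated cells, 4 higher and 8 lower, beside 46% of all genes, with a median of -1.15, and 9 of 13 against vehicle, 3 higher and 6 lower, beside 43.2%, with a median of -0.81. Of these calls, 5 against DHT (ALDH16A1, ALDH3A1, ALDH3B1, ALDH3B2 and ALDH7A1) and 4 against vehicle (the same without ALDH3B1) were of genes that passed the filter only through 1 group, and of the other tested genes 7 of 8 and 5 of 9 were called. ALDH7A1 (7.48 and 9.16) and ALDH3B1 (4.24 and 3.16) were higher in PC3 cells in both comparisons, as was ALDH3A1, at least 55.9-fold and 51.3-fold. For ALDH7A1 the values were 8.32 without DHT replicate 1 and 10.9 without vehicle replicate 1. ALDH5A1, an enzyme of GABA breakdown, was higher than with DHT (1.28). ALDH2, the mitochondrial enzyme of ethanol metabolism (-3.65 and -4.09), and ALDH6A1 (-4.59 and -3.55) were lower. ALDH16A1 and ALDH3B2 had at most 3 counts in any PC3 library and were at least 307-fold and 223-fold lower than in DHT-treated cells. PC3 cells therefore combined the highest ALDH1A3 level with low levels of several other family members.

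**Figure D5:**
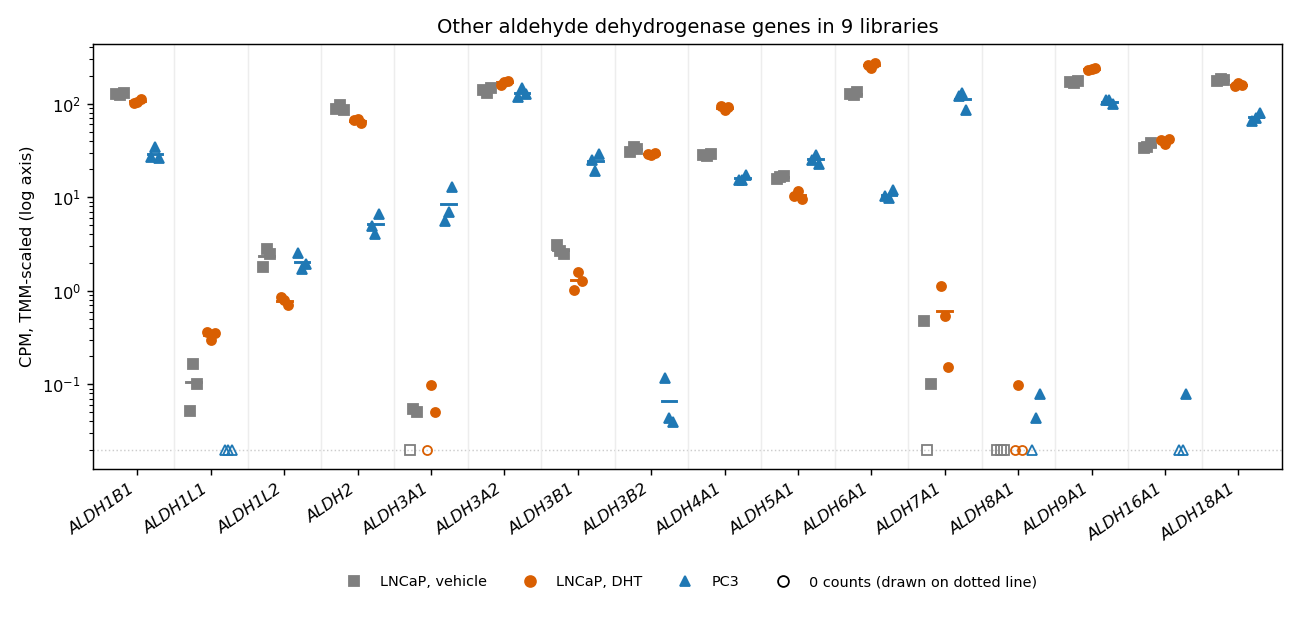
CPM after TMM scaling (log axis) in each library for 16 aldehyde dehydrogenase genes outside the ALDH1A group, with symbols as labelled, bars at the group mean where every library had counts and open symbols for 0 counts. ALDH3A1, ALDH3B1 and ALDH7A1 stand highest in PC3 cells, ALDH16A1 and ALDH3B2 are close to 0 there, and ALDH4A1 and ALDH6A1 rise with DHT.

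Genes with the most similar profile over the 9 libraries were found by the root mean square distance between log2 CPM values, each centred on its own mean, among 12835 genes. This is a description over libraries of 3 groups, which the group differences dominate. Nearest to ALDH1A3 were MGLL (distance 0.148), KCNMA1 (0.206) and KLF6 (0.217), and MGLL had means of 202 CPM in PC3 cells, 45.3 with DHT and 10.9 with vehicle. RDH11 had the closest neighbours of the set, ALKBH6 (0.0615), ZNF552 (0.0825) and PACSIN2 (0.0934). Nearest to DHRS3 were HERPUD1 (0.164), RABAC1 (0.184) and IL10RB (0.191). CRABP2 was followed by NAV2 (0.124), MEF2C (0.191) and ESM1 (0.195), and RDH10 by SDCBP2-AS1 (0.162), PRKAR1B (0.167) and TSPOAP1 (0.180).

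By location in GENCODE 44 (GRCh38), ALDH1A3 spans chr15:100877714-100916626 with 13 exons in its MANE transcript and ALDH1A2 spans chr15:57953424-58497866 on the same chromosome. RDH11 spans chr14:67676800-67695793, DHRS3 chr1:12567910-12618210 and CRABP2 chr1:156699606-156705816. Of all 74-nt stretches of a gene's transcripts, 25.3% for ALDH1A3 also occurred in transcripts of other genes and 0% elsewhere in the genome, and for the other 8 genes at most 4.44% occurred in either. Both strands were searched, so antisense transcripts such as those of ALDH1A3-AS1 count as other genes, although the forward-strand counts separate them. ALDH1A3-AS1 is not among the counted symbols by that name.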

How the data were processed

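Poly(A) RNA was sequenced as single-end 74-nt reads. Per the labels, the authors trimmed with cutadapt 4.1, aligned to hg38 with STAR 2.7.7a and removed duplicates with UMI-tools 1.1.2. The authors deposited counts per gene symbol, without normalization, for 28216 genes, and all 253944 values equal the forward-strand column of the deposited STAR output. Of the symbols, 25696 were found in GENCODE 44.

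In edgeR 4.0.16 under R 4.3.3, TMM scaling and quasi-likelihood F tests were run, each comparison on its own 6 libraries, after keeping genes over 3 CPM in at least 3 libraries. The p-values were adjusted by Benjamini-Hochberg over all genes tested, and genes were called at an adjusted p under 0.05 with a change of 2-fold or more. CPM were scaled with TMM over the 9 libraries together. Where all libraries of a group had 3 counts or fewer, only a lower bound of the fold is printed. It is the mean CPM of the higher group divided by the largest CPM that 3 counts give in the other group. The spread of the higher group does not enter it, so single libraries can lie below the bound. The likelihood ratio test of the study, which held a batch term, is an alternative here because the batches are not named. On simulated data the test recovered 199 of 200 changed genes among 12541 (PC3 against DHT), 200 of 200 among 12686 (PC3 against vehicle) and 200 of 200 among 11697 (DHT against vehicle).

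The 9 genes and the other lists were chosen with earlier results of these data known. Named besides the 9 were, for each list by role and each comparison, up to 4 called genes per direction by fold change, receptors, CYP26 genes and others needed to describe a list, and the 3 nearest profiles. Values for the marker lists are given in part.

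Replicate numbers recur in all groups. Deviations from the group means correlated between DHT and vehicle libraries of the same number with 0.183 to 0.21 and of different numbers with -0.228 to 0.0418, so the counts give signs of pairing between the LNCaP libraries. The printed tests do not use it, and fits with the replicate number as a block are alternatives.

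Alternatives were DESeq2 size factors, DESeq2 1.42.0, the likelihood ratio test, the replicate block, other filters, unstranded counts, the adjusted p alone, 1 fit of all libraries and leaving out each library. Fold changes of list genes without single LNCaP libraries, and counts of genes that passed the filter in both groups, were chosen after seeing the data.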

Additional observations from a re-analysis of the deposited data

Results flagged for a closer look

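Reads on the strand opposite to a gene were not used in any comparison, and for 3 genes their counts in PC3 or DHT-treated cells exceeded every vehicle library. For ALDH1A3 the median was 101 such reads in PC3 libraries (58 to 107) and 16 with DHT (9 to 19), against 2 to 6 with vehicle. For RDH11 it was 98 with DHT (73 to 105), against 27 to 54 with vehicle. For CRABP2 it was 14 in PC3 libraries (9 to 14), against 0 with vehicle. As a share of the forward counts these reads made up 0.201% to 0.656% for ALDH1A3 in all groups, 0.253% to 0.460% for RDH11 in all groups and 0.619% to 0.653% for CRABP2 in PC3 cells. Their source was not tested.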

How the results depend on the processing

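Of 222 alternative fold changes for the 5 tested genes, 220 kept their direction and their side of the thresholds. Among the 9 genes the calls changed only with the filter. Without one, ALDH1A2 was added for PC3 against DHT (5 calls in place of 4), and ALDH1A2 and DHRS9 for PC3 against vehicle (6 in place of 4). With 10 counts in every library CRABP2 was not tested and 3 remained in both. Reversals came without PC3 replicate 2, for DHRS3 against DHT (0.0166, adjusted p = 0.932, edgeR; -0.34 without PC3 replicate 3) and RDH10 against vehicle (0.11, adjusted p = 0.440, edgeR; -0.33 without PC3 replicate 3), neither of which was called before. Of 144 counts of called genes, 129 stayed within 1.5 times. Without a filter, 24 pathway genes were called for PC3 against DHT, 22 for PC3 against vehicle and 6 for DHT, and 6 other ALDH genes for DHT. With 10 counts in every library they were 4 pathway and 5 other ALDH genes for PC3 against vehicle, and 2 and 4 for DHT. With the adjusted p alone they were 16, 18 and 9 pathway genes and, for DHT, 10 other ALDH genes. A fit of all 9 libraries called 3 pathway genes for DHT. Other ALDH genes called with DHT ranged from 1 to 2 when a library was left out, with 1 without DHT replicate 3 or vehicle replicate 2. With the replicate block the 9 genes still gave 4 calls in each comparison, and over all genes it called 5756 in place of 5773 for PC3 against DHT, where same-numbered libraries correlated with -0.155 to 0.0256, 5495 in place of 5485 for PC3 against vehicle (-0.157 to 0.0525) and 1638 in place of 1641 for DHT. The block changed none of the calls for the 9 genes. Depth limits STRA6, DHRS9, ALDH1A1 and ALDH1A2, which had at most 24 counts.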
